A study of Mus musculus with 56 samples.

Results

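The night-fed liver at the onset of feeding is represented by 8 of the 56 libraries of the series. They were chosen by their labels alone, as the livers under nighttime-restricted feeding (NRF) at zeitgeber time 16 (ZT16) against those at ZT12, with 4 animals in each group. ZT is the number of hours after lights on, so ZT12 is lights off and the end of the daily fast of these animals, and ZT16 is 4 h into both the dark phase and the food window. All animals were female C57BL/6J mice of 9 weeks, kept under 12 h of light per day, with 7 days on the regimen. Each liver came from a different animal. A second regimen, daytime-restricted feeding (DRF), with food given in the light phase, supplied 2 further pairs of groups of 4 animals each: DRF ZT0 and ZT4, the first 4 h of food by day, and DRF ZT12 and ZT16, the same clock hours with food withdrawn. Within NRF, food intake, darkness and clock time change together and cannot be told apart. The paper reports an inverted phase of the liver clock genes under daytime feeding. Neither DRF pair therefore separates food from the phase of the liver clock. Whole liver was sequenced after removal of ribosomal RNA, and in whole tissue fewer cells of a type and less RNA per cell cannot be told apart.

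When a fasted liver receives food, insulin and glucose rise in the portal blood. Insulin keeps the FOXO factors out of the nucleus, which lowers genes of glucose production, and raises the lipogenic factor SREBP-1c. The same hours carry the turn of the molecular clock, in which BMAL1 (Arntl) and CLOCK drive the Per, Cry, Nr1d and Dbp genes through E-boxes, while the REV-ERB proteins made from Nr1d1 and Nr1d2 repress Arntl. Protein synthesis and secretion increase after a meal, and chaperones of the cytosol and of the endoplasmic reticulum (ER) fold the new proteins.

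Promoter sequences are shown for members of the chaperone and clock lists, because each of these families has a known element upstream of its genes. The 250 bases before each start in the RefSeq promoter table (GRCm38.p6) were searched on both strands for the ER stress response element (CCAAT and CCACG with 9 bases between), the heat shock element of 3 units (GAA, TTC and GAA with 2 bases between neighbours), the E-box (CACGTG), the core of the ROR element (TAGGTCA) and a core of the serum response element. The ER stress response element stood before 9 of the 23 ER chaperone and unfolded protein response genes with a promoter in the table, against 0.130% of the 27025 genes in the table. It was found for Hspa5, Hsp90b1, Pdia6, Calr, Canx, Dnajc3, Creld2, Syvn1 and Derl3. The heat shock element stood before 2 of 13 heat shock genes, Hspd1 and Hspe1, whose windows overlap on opposite strands, against 0.514% of all genes. The E-box stood before 5 of 16 clock genes (Per1, Cry1, Tef, Bhlhe41 and Ciart), against 6.86%. The ROR core stood before 1 of 16 clock genes, Nfil3, against 2.55%, and the serum response core before 0 of 14 immediate early genes, against 0.0740%. A match is a description of these letters in this window and shows no binding. For the 3 elements with matches in more than 1 gene, the members with the largest called difference are printed in the direction of transcription with the matches in capitals. The window of Creld2 is chr15:88819396-88819645 (plus strand), that of Hspa5 chr2:34771840-34772089 (plus), that of Hspd1 chr1:55087933-55088182 (minus, with 2 overlapping matches), that of Per1 chr11:69098699-69098948 (plus) and that of Cry1 chr10:85185055-85185304 (minus).
Creld2: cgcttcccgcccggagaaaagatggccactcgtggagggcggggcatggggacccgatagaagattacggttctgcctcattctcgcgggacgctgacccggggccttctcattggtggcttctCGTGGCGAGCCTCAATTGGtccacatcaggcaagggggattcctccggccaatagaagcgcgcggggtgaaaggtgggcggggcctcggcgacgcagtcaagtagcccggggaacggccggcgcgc
Hspa5: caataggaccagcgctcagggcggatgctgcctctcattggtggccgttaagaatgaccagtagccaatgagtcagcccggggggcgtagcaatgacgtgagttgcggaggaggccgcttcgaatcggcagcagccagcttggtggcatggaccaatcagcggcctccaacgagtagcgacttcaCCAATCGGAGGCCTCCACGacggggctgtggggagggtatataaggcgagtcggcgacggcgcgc
Hspd1: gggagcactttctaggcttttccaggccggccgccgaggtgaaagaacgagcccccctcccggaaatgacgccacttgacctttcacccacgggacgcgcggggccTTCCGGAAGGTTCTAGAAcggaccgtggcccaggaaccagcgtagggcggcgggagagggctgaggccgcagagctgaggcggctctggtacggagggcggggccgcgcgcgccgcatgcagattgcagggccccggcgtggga
Per1: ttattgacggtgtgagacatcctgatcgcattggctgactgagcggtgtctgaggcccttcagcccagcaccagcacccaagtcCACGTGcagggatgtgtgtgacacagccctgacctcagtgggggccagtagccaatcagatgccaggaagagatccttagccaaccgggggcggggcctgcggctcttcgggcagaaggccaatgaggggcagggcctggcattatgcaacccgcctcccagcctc
Cry1: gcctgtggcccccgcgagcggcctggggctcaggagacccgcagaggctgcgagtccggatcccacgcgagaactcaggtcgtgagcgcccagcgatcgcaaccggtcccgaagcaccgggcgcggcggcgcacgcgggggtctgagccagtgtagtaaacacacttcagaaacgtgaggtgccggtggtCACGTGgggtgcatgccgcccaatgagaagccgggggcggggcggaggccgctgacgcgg

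Gene levels are given as scaled counts. These were rebuilt from the authors' values, are set to the size of each library and lie close to CPM. They carry no correction for gene length and compare libraries, not genes. Differences are on the scale log2(scaled count + 1), on which changes of low genes appear smaller than they are. The rebuilt counts summed to 503 to 649 mega-counts in the ZT12 libraries and to 306 to 571 in the ZT16 libraries (exact permutation p = 0.0857, two-sided). They exceed sequenced reads, so they give depth in relative terms only. Correlations between replicates, computed across genes, lay between 0.964 and 0.984. Those between ZT12 and ZT16 libraries lay between 0.940 and 0.978, so the ranges overlapped. The labels used here give no sequencing batch or date. Hepatocyte markers were abundant in every library, with sums of 98368 to 152992 scaled counts. The macrophage (Kupffer cell) markers summed to 885 to 984 at ZT12 and to 636 to 860 at ZT16, and the sinusoidal endothelial markers to 669 to 697 and to 562 to 645. Those of pancreatic acinar cells summed to 3.32 to 3.63 and to 2.07 to 3.18. For each of these 3 sums the groups did not overlap (exact permutation p = 0.0286, two-sided, the smallest that 4 against 4 allows; 0.133 after Benjamini-Hochberg adjustment over 14 library measures). Single macrophage markers fell in 3 of 10 cases, Cd5l, Csf1r and C1qb, and endothelial markers in 2 of 10, Stab2 and Flt4. Of all genes with a mean of at least 1 scaled count, 15.1% fell. The macrophage and endothelial counts were 1 and 1 with median-of-ratios scaling, 0 and 0 as deposited and 1 and 0 in the 8 libraries alone. The macrophage count was 1 without ZT16 replicate 1 or 3 or ZT12 replicate 2 or 3, and the endothelial count 1 without ZT16 replicate 1. Of the other markers, the cholangiocyte genes Krt19 and Sox9 (2 of 6) and the hepatocyte gene Hnf4a (1 of 7) rose and the acinar gene Cela2a (1 of 2) fell, while 0 of 10 stellate, 0 of 6 erythroid, 0 of 5 neutrophil, 0 of 8 lymphocyte and 0 of 2 adipocyte markers were called by limma (1 stellate and 1 neutrophil marker had an unadjusted p under 0.05). In the 8 libraries alone 0 cholangiocyte, hepatocyte and acinar markers were called, while 1 lymphocyte marker was called lower. The cholangiocyte count was 1 without ZT16 replicate 3 or ZT12 replicate 1 or 2. Neutrophil, lymphocyte and adipocyte marker sums were at most 3.67 scaled counts in these libraries. The part of the other cell types in the results was not tested.

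In the first 4 h of the food window, 4198 of 25382 genes changed (16.5%; adjusted p under 0.05, limma across all 56 libraries). Of these, 1685 rose (6.64% of genes tested) and 2513 fell (9.9%), and these shares are the background for the counts of each gene group. Among the 13723 genes with a mean of at least 1 scaled count, to which most list members belong, the shares were 24.7% called, 9.6% higher and 15.1% lower. A change of at least 2-fold on the log2 scale was found for 154 rising and 124 falling genes. The groups did not overlap for 3387 genes (13.3%), of which 2659 were among the genes called. The balance of rises and falls depended on the scaling. The share of called genes that rose was 40.1%, but 52.0% with median-of-ratios scaling, 56.3% on the values as deposited and 60.9% after correction for exon length. Fitted on the 8 libraries alone, the test called 1071 genes, of which 1007 were also among the 4198.

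The 12 largest rises included those of Arntl, Tubb2a, Hsph1, Hapln1, Cyp2b10, Cyp1a1, Creld2, Acnat2, Atp2b2, Mical2 and Ddc. The 12 largest falls were those of Rgs16, Dbp, Gpcpd1, Mt2, Fbxo21, Gm14097, Gm15637, Slc7a2, Nr1d1, Egr1, 6430573P05Rik and Depp1. All were required to differ without overlap of the 4 against 4 libraries and to reach 5 scaled counts in the higher group. The plot of these genes shows the value of each liver. The separation of the groups in it follows from the way the genes were chosen.

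**Figure D1:**
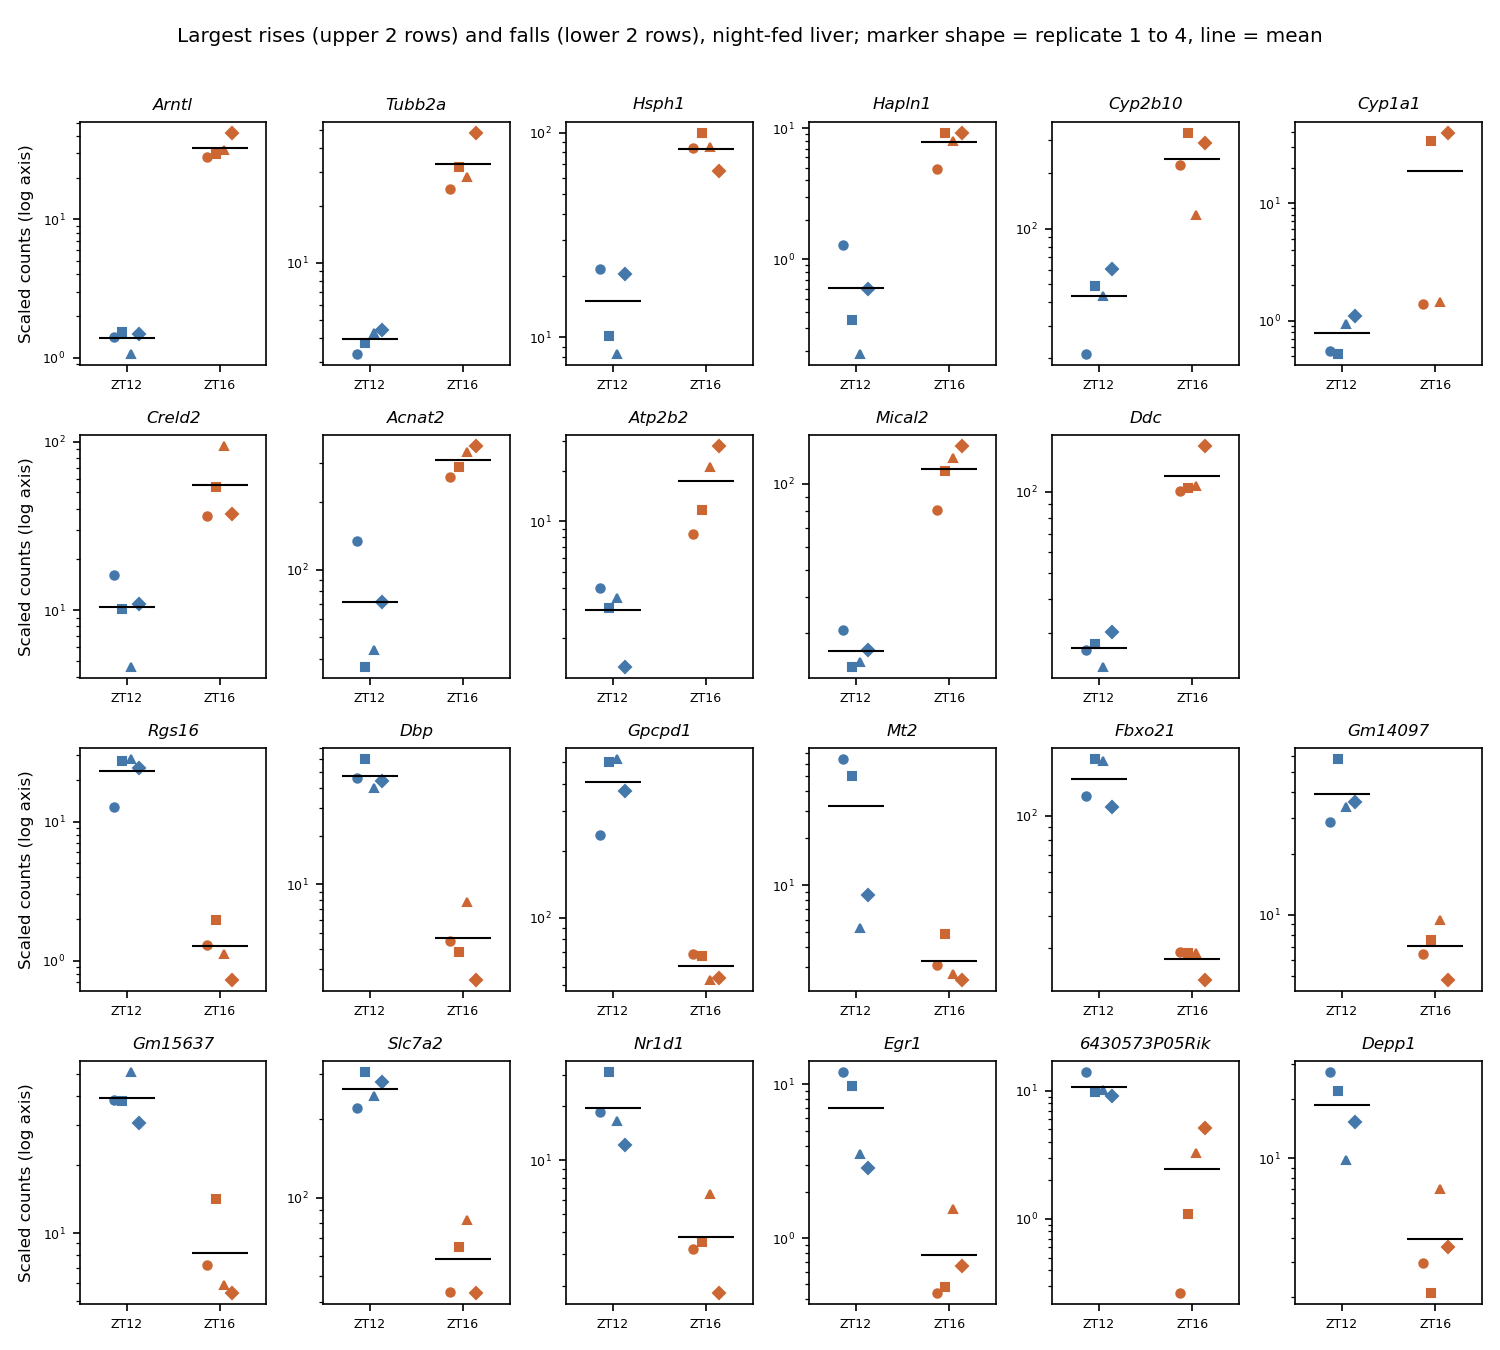
Scaled counts (log axis) of the leading rising genes named above (upper 2 rows) and the 12 with the largest falls (lower 2 rows) in night-fed liver at ZT12 (blue) and ZT16 (orange); each point is 1 liver, the marker shape gives the replicate and the line is the mean of 4. Arntl rose from 1.38 to 33.0 and Rgs16 fell from 23.1 to 1.27, while Cyp1a1 at ZT16 split into 2 livers near 1.4 and 2 above 33.

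Most clock genes changed, with 6 of 19 members higher, 8 lower and 5 not called. Arntl (chr7:113207465-113314126), the BMAL1 gene of the positive limb, was 1.41, 1.53, 1.07 and 1.49 scaled counts in the 4 livers at ZT12 and 28.2, 29.7, 32.0 and 42.1 at ZT16. Every ZT16 liver was far above every ZT12 liver, and the means of 1.38 ± 0.209 (SD, n = 4) and 33.0 ± 6.26 differed 24-fold (log2 difference 3.83, SE 0.19, limma adjusted p = 1.8e-19). Its partner Clock was 3.12-fold higher (30.5 ± 5.36 against 95.1 ± 6.84), with no overlap of the groups. Nfil3, a repressor of D-box genes, and the E-box repressor Cry1 also rose, with log2 differences of 1.27 for each, as did Per2 (0.81).

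The falls were led by Dbp (chr7:45705088-45710203), a D-box activator and direct E-box target. It was 45.7, 59.9, 40.0 and 43.6 scaled counts at ZT12 and 4.42, 3.82, 7.76 and 2.56 at ZT16, a 10.2-fold lower mean (log2 difference -3.16, SE 0.21, limma adjusted p = 5.8e-15). Nr1d1 (chr11:98767932-98775333), the REV-ERBα gene, was 18.6, 31.0, 16.7 and 12.3 at ZT12 and 3.19, 3.50, 6.49 and 1.83 at ZT16, and its paralog Nr1d2 was 2.57-fold lower. The groups overlapped for neither gene. Per1 (log2 difference -1.28), Per3 (-1.26), Ciart (-0.93), Tef (-0.87) and Bhlhe41 (-0.56) fell as well. Among the 5 clock genes with an E-box in the window searched, Per1, Tef, Bhlhe41 and Ciart fell while Cry1 rose. Rora, Cry2, Hlf, Bhlhe40 and Npas2 were not called, with log2 differences between -0.18 and 0.32. Exons of Dbp overlap those of Sphk2 on the opposite strand over 18% of their length and those of Nr1d1 overlap Thra over 8.55%. The libraries were strand-specific, but the use of strand in counting is not given in the sources used here. Other genes named below overlap an opposite-strand gene too, among them Irs1 (30.9%), Mid1ip1 (25.5%) and Ccnd1 (23.4%).

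Genes under insulin and FOXO control changed in 11 of 19 cases, 8 falling and 3 rising. In the 8 libraries alone 3 fell and 3 rose, and on the values as deposited 2 fell and 3 rose. Trib3, an inhibitor of AKT, fell 6.19-fold, from 5.02 ± 2.34 to 0.811 ± 0.171 scaled counts. The insulin receptor gene Insr (log2 difference -0.62), the adaptor gene Irs2 (-1.14) and the factors Foxo1 (-0.50) and Foxo3 (-0.47) fell, whereas Irs1 rose by 0.72. Igfbp1, a secreted IGF-binding protein repressed by insulin, was 7.73, 53.3, 37.4 and 61.3 at ZT12 and 2.82, 6.23, 25.2 and 9.92 at ZT16 (log2 difference -1.79, SE 0.62, limma adjusted p = 0.038). ZT12 replicate 1 lay within the range of the ZT16 livers. The same liver was apart for Ppp1r3g, a glycogen-targeting subunit of protein phosphatase 1, which was 0.0212, 14.2, 6.89 and 4.08 at ZT12 and 0.0693 to 0.115 at ZT16 (log2 difference -2.20, limma adjusted p = 6.5e-06). Both Ppp1r3b and Ppp1r3c, which encode sister subunits, moved the other way without overlap, with means 3.21-fold and 4.13-fold higher.

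In the list of glucose uptake, glycolysis and ChREBP, 3 of 19 genes fell, Slc2a2 (log2 difference -0.53), Txnip (-0.65) and Pfkfb3 (-0.87). This share, 15.8%, was near the background of 15.1%. Pck1, the cytosolic enzyme of gluconeogenesis, was 740.3, 1245, 1121 and 1036 at ZT12 and 215, 204, 431 and 296 at ZT16, a 3.62-fold lower mean with no overlap. Ppargc1a (log2 difference -0.47) and Sds (-0.75) fell with it, but G6pc, which releases free glucose, rose 2.48-fold (118 ± 53.3 against 293 ± 83.0, limma adjusted p = 0.003). The gluconeogenesis list therefore held 1 rise and 3 falls among 14, and 0 rises and 1 fall in the 8 libraries alone. Of 11 glycogen genes 5 fell and 0 rose, namely Gys2 (glycogen synthase), Gyg, Phka2, Stbd1 and Epm2a, with log2 differences between -0.91 and -0.45.

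Lipid genes changed in both directions. Of 16 fatty acid synthesis enzymes and partners tested, 4 rose and 0 fell: Pnpla3 (log2 difference 1.44), Fasn (1.29), Mid1ip1 (1.29) and Elovl6 (1.01). Fasn, the fatty acid synthase gene, was 179.7, 133, 378 and 257 at ZT12 and 531, 613, 313 and 827 at ZT16, so that the groups overlapped in 1 pair of livers (limma adjusted p = 0.013). These calls depended on single livers: the count was 0 without ZT16 replicate 4, 1 without ZT12 replicate 2, and 2 without ZT16 replicate 1 or ZT12 replicate 1, and it was 0 in the 8 libraries alone. ZT16 replicate 3 had the lowest Fasn, Pnpla3 and Mid1ip1 of the ZT16 livers. Srebf1, the gene of the lipogenic factor, rose 1.82-fold without overlap. Insig2, which retains SREBP in the ER, rose 2.38-fold, while the escort gene Scap fell (log2 difference -0.79). In the SREBP system 3 of 14 genes rose and 5 fell, and of 20 cholesterol synthesis enzymes 1 fell, Mvk (-0.58), and 0 rose. In the 8 libraries alone 2 genes of the SREBP system rose, 1 fell, and 0 cholesterol synthesis enzymes were called. The cholesterol synthesis list held 0 falls without ZT16 replicate 1 or 2 or ZT12 replicate 1 or 3, and 2 without replicate 4 of either group.

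The lipins, phosphatidate phosphatases that also act as cofactors of PPARα, fell together. Lpin1 was 209, 173, 208 and 241 at ZT12 and 42.8, 81.9, 42.8 and 66.5 at ZT16, a 3.55-fold lower mean (log2 difference -1.86, SE 0.30, limma adjusted p = 9.1e-06), and Lpin2 fell 2.49-fold. With Lpin3, Cidec, Plin2 and Pnpla2, the lipase of lipid droplets, 6 of 20 genes of triglyceride synthesis and storage fell, and Gpat4, Agpat2 and Plin5 rose. The number that rose was 1 without ZT16 replicate 2 or 4 and 0 in the 8 libraries alone, where 4 fell. Of 30 fatty acid oxidation and ketogenesis genes 5 fell, namely Angptl4 (log2 difference -1.45), Ppara (-0.83), Cpt1a (-0.68), Bdh1 (-0.56) and Acads (-0.30), and Cpt2 rose by 0.34. The share that fell, 5 of 30, was near the background of 15.1%, and the list held 0 rises without ZT16 replicate 2, 3 or 4 or ZT12 replicate 3 or 4. Angptl4, an inhibitor of lipoprotein lipase and a PPAR target, was 10.4 to 22.0 at ZT12 and 3.60 to 4.76 at ZT16. In all, 6 of 17 genes of bile acid synthesis and sterol export fell and 0 rose: the nuclear receptors Nr0b2 (-1.45) and Nr1h4 (-0.39), the sterol transporter pair Abcg8 (-1.46) and Abcg5 (-0.85), Amacr (-0.50) and Cyp7b1 (-0.36). Cyp7a1, the rate-limiting enzyme of bile acid synthesis, was 242 ± 108 against 249 ± 59.98 and was not called (limma adjusted p = 0.88).

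Chaperones of the cytosol and the ER made up the gene groups with the highest medians of all lists tested. Among 20 heat shock genes 14 rose and 1 fell, with a median log2 difference of 0.97 against -0.00 over all genes. Hsph1 (chr5:149614287-149636376), an HSP110 exchange factor for HSP70, was 21.6, 10.1, 8.32 and 20.3 scaled counts at ZT12 and 83.9, 99.5, 85.2 and 64.6 at ZT16 (log2 difference 2.48, SE 0.31, limma adjusted p = 7.7e-08). The groups were well apart. The constitutive HSP70 gene Hspa8 rose 2.78-fold, from 231 ± 51.5 to 642 ± 139. Hsp90ab1 (log2 difference 1.0), Dnaja1 (1.25), Chordc1 (1.43), Hspb1 (1.37) and the co-chaperone Bag3 (1.04) rose without overlap. The inducible genes Hspa1a and Hspa1b were low, at most 13.2 scaled counts, and as near-identical copies may exchange reads. Their log2 differences were 0.75 and 1.34. Hsp90aa1 was 276, 199, 7.55 and 164 at ZT16 against 21.4 to 42.0 at ZT12, so ZT16 replicate 3 lay below all ZT12 livers. The gene of the list that fell, Cirbp, encodes a cold-inducible RNA-binding protein and is not a chaperone. It was 1.75 to 4.0 at ZT12 and 0.640 to 0.847 at ZT16 (log2 difference -1.04). Without ZT16 replicate 2 the number of heat shock genes called higher was 9, and in the 8 libraries alone it was 8.

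Among 28 genes of ER chaperones and the unfolded protein response, 17 rose and 1 fell, with a median log2 difference of 0.48. Creld2 (chr15:88819646-88826683), an ER protein with disulfide isomerase activity, was 16.1, 10.1, 4.62 and 10.9 at ZT12 and 36.0, 54.0, 93.9 and 37.3 at ZT16 (log2 difference 2.30, SE 0.33, limma adjusted p = 1.4e-06). Sdf2l1 (1.54), Manf (1.44), Hyou1 (1.43), Hspa5 (1.13) and Dnajb11 (1.06) followed, each without overlap of the groups. Hspa5, the BiP gene, was 97.5, 71.9, 45.4 and 59.8 at ZT12 and 109, 123, 289.6 and 116 at ZT16. For Creld2 and Hspa5 the highest ZT16 liver was replicate 3, the liver with the lowest Hsp90aa1. All members with an ER stress response element in the window searched were among those called higher except Derl3, which was not called and was at most 0.260 scaled counts. Over the whole list 17 of 28 rose, among them Sdf2l1, Manf, Hyou1 and Dnajb11, for which no match was found. Only 23 of the 28 had a promoter to search. Whether the element goes with the rise was not tested. Herpud1, a component of ER-associated degradation, fell by 0.82 on the log2 scale. Xbp1, a transcription factor of the response, was not called (49.6 ± 10.3 against 47.5 ± 6.25, limma adjusted p = 0.83). In the 8 libraries alone 6 members were called higher. Of 20 targets of the integrated stress response 5 fell (Trib3, Cebpb, Chac1, Sesn2 and Eif4ebp1) and 1 rose (Psph). The rise was not called without ZT16 replicate 2 or 4 or ZT12 replicate 1, 2 or 4, and in the 8 libraries alone 3 fell and 0 rose. Atf4 itself was 9.84 ± 1.84 against 10.7 ± 1.67 (limma adjusted p = 0.72).

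**Figure D2:**
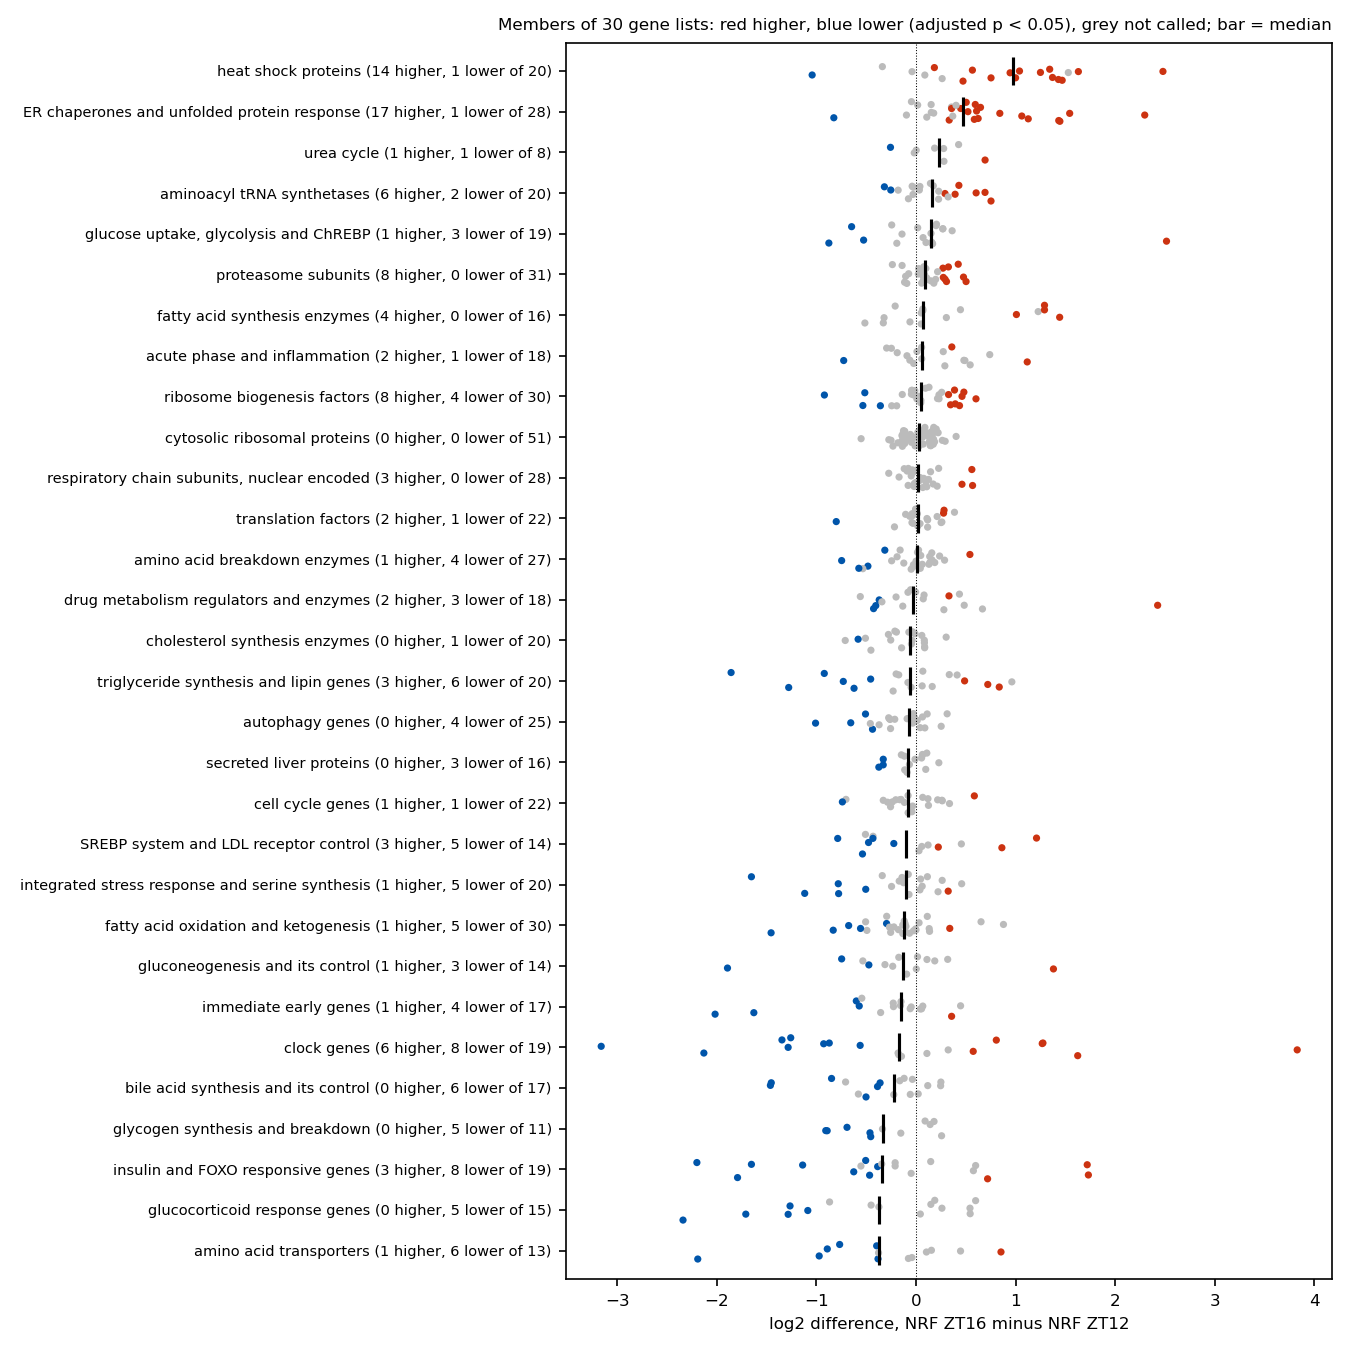
Log2 difference between NRF ZT16 and NRF ZT12 for each member (point) of 30 gene lists, ordered by the median (black bar); red points were called higher, blue points lower and grey points not called (limma, adjusted p under 0.05). Heat shock genes (median 0.97) and ER chaperones (0.48) lie to the right, amino acid transporters (-0.38) and glucocorticoid response genes (-0.37) to the left, and the 51 ribosomal protein genes hold no called member.

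Genes of protein synthesis and turnover moved by small amounts. Of 20 aminoacyl tRNA synthetases 6 rose, led by Tars (log2 difference 0.75), Aars (0.69) and Iars (0.60), and Qars (-0.25) and Vars (-0.32) fell. Of 30 ribosome biogenesis factors 8 rose, with log2 differences between 0.33 and 0.60, and 4 fell (Polr1c, Rrn3, Rrp9 and Rrp1). Of 31 proteasome subunits 8 rose and 0 fell, with log2 differences between 0.27 and 0.50 among those called. The number of ribosome biogenesis factors that rose was 5 without ZT16 replicate 4 or without ZT12 replicate 2, the number that fell was 2 without ZT16 replicate 3, ZT12 replicate 3 or ZT12 replicate 4, and that of proteasome subunits was 4 without ZT16 replicate 4 or without ZT12 replicate 3. In the 8 libraries alone these counts were 2 synthetases, 1 biogenesis factor and 1 proteasome subunit. Of 51 ribosomal protein genes 0 were called in either direction by limma, and 0 had an unadjusted p under 0.05. Among 22 translation factors Eef1g and Eif2s1 rose and Eif4b, a helicase cofactor, fell from 275 ± 13.4 to 157 ± 8.99 without overlap. The number of translation factors that rose was 4 without ZT16 replicate 1, 1 without ZT16 replicate 2, 3 or 4 or ZT12 replicate 1, and 0 in the 8 libraries alone. Autophagy genes fell in 4 of 25 cases, led by the initiating kinase gene Ulk1, which was 53.2 to 75.7 at ZT12 and 29.6 to 36.5 at ZT16. The share of autophagy genes that fell, 16%, was near the background of 15.1%. That of translation factors that rose, 9.09%, was near the background of 9.6%.

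Amino acid transporters fell in 6 of 13 cases. Slc7a2 (chr8:40862396-40922308), a carrier of cationic amino acids, was 222, 303, 247 and 278 at ZT12 and 43.5, 64.8, 82.2 and 43.2 at ZT16 (log2 difference -2.19, SE 0.29, limma adjusted p = 2.6e-07). Slc38a2 (-0.97), Slc38a4 (-0.89) and Slc38a3 (-0.77), sodium-coupled carriers of neutral amino acids, fell without overlap. Slc7a5 (-0.39) and the glutamate carrier Slc1a2 (-0.38) also fell, and Slc1a4 rose by 0.85. Of 27 amino acid breakdown enzymes 4 fell (Sds, Agxt, Bckdha and Ftcd), and Kynu, of tryptophan breakdown, rose by 0.54. Bckdha shares 61.7% of its exon length with B3gnt8 on the opposite strand, and Sds shares 21.3% with Plbd2. The share of falls was near the background, and their number was 2 without ZT16 replicate 3 and 0 in the 8 libraries alone or on the values as deposited. Among 8 urea cycle genes the mitochondrial carrier Slc25a15 rose (0.69) and Slc25a13 fell (-0.26). The list held 3 rises and 0 falls with median-of-ratios scaling or on the values as deposited, 0 of either in the 8 libraries alone, 3 rises without ZT16 replicate 3, 2 without ZT16 replicate 1 or ZT12 replicate 4, and 0 falls without ZT16 replicate 1 or 3 or ZT12 replicate 3 or 4.

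Of 15 glucocorticoid response genes 5 fell and 0 rose. Klf9 was 27.0 to 34.3 at ZT12 and 11.8 to 17.3 at ZT16. Per1 and Zbtb16 (log2 difference -1.26) fell with it. The metallothionein genes Mt1 and Mt2 fell too, but ZT12 was split. Mt2 was 64.0 and 49.8 in replicates 1 and 2 and 5.31 and 8.69 in replicates 3 and 4, against 2.47 to 4.87 at ZT16. Exons of Mt2 overlap the antisense gene Gm45774 over 73.5% of their length, and its call was lost in the 8 libraries alone (adjusted p = 0.15). Of 17 immediate early genes, which respond to signals within minutes, 4 fell (Egr1, Junb, Ier2 and Btg2) and Ier5 rose. Egr1 was 11.9, 9.71, 3.53 and 2.84 at ZT12 and 0.441, 0.479, 1.55 and 0.656 at ZT16 (limma adjusted p = 0.039). The call of Egr1 was lost when any of ZT16 replicates 1, 2 and 4 or ZT12 replicates 1 and 2 was left out, and the count of falling immediate early genes was 1 or 2 without any liver but ZT12 replicate 4.

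Among 18 drug metabolism genes tested, Cyp2b10 and Cyp3a13 (log2 difference 0.33) rose and the regulators Nr1i2 (-0.43) and Nr1i3 (-0.40) and the reductase gene Por (-0.37) fell. Cyp2b10 (chr7:25897620-25926624), a target of the nuclear receptor CAR encoded by Nr1i3, was 21.2, 49.1, 43.3 and 60.5 at ZT12 and 222, 329, 118 and 289 at ZT16 (log2 difference 2.43, SE 0.38, limma adjusted p = 5.3e-06). Exons of Nr1i3 overlap Tomm40l over 74.9% of their length. Of 28 nuclear respiratory chain genes Ndufv2, Cycs and Sdhc rose and 0 fell. Of 22 cell cycle genes Ccne1 fell (1.45 ± 0.273 against 0.470 ± 0.189) and Rrm2 rose. Of 16 secreted liver proteins the 3 fibrinogen chains Fga, Fgb and Fgg fell, with log2 differences of -0.37 to -0.33. This count was 0 without ZT16 replicate 1, in the 8 libraries alone and on the values as deposited, and 1 without ZT16 replicate 2 or ZT12 replicate 1 or 2 and with median-of-ratios scaling. Of 18 acute phase and inflammation genes Saa4 (1.12) and Crp (0.36) rose and Nfkbia fell by 0.73. Rises in the drug metabolism (11.1%), respiratory chain (10.7%) and acute phase (11.1%) lists were near the background of 9.6%. Falls in the drug metabolism (16.7%) and secreted protein (18.8%) lists were near that of 15.1%. In the 8 libraries alone the drug metabolism list held 1 rise and 0 falls, the respiratory chain list 0 rises, the cell cycle list 0 rises and 1 fall, and the acute phase list 0 of either. The drug metabolism list held 1 rise without ZT16 replicate 2 or 4 or ZT12 replicate 1 or 3, the cell cycle list 0 without ZT16 replicate 2 or 4 or ZT12 replicate 1 or 2, and the acute phase list 1 without ZT12 replicate 2. In the 8 libraries alone the falls numbered 2 in the glucocorticoid list, 4 in the bile acid list, 2 in the autophagy list, 3 in the glycogen list and 1 in the glycolysis list.

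The other leading genes lie outside these lists. Rgs16 (chr1:153740349-153745468), a GTPase activator for G proteins, was 12.8, 27.4, 28.0 and 24.2 at ZT12 and 1.30, 1.95, 1.12 and 0.728 at ZT16, an 18.1-fold lower mean (log2 difference -3.37, SE 0.48, limma adjusted p = 9.2e-07). Gpcpd1 (chr2:132529082-132587729), a glycerophosphocholine phosphodiesterase, was 235.5, 499, 514 and 371 at ZT12 and 52.7 to 68.9 at ZT16. Fbxo21, a subunit of ubiquitin ligases, fell 5.18-fold, and Depp1, a FOXO target, 4.73-fold. Tubb2a (chr13:34074274-34078007), a β-tubulin with close paralogs, rose 8.44-fold, from 3.31 to 4.43 across the ZT12 livers to 24.4 to 48.3 at ZT16. Hapln1, a link protein of the matrix, rose 12.8-fold, and the acyltransferase gene Acnat2 4.30-fold. The calcium pump gene Atp2b2 rose 5.84-fold, Mical2, of actin oxidation, 4.36-fold, and Ddc, the aromatic amino acid decarboxylase gene, 4.32-fold. Cyp1a1, a target of the aryl hydrocarbon receptor, was 1.39, 33.4, 1.46 and 39.3 at ZT16 against 0.530 to 1.10 at ZT12, so its difference rested on ZT16 replicates 2 and 4 and was lost in the 8 libraries alone (adjusted p = 0.25). The antisense genes Gm14097 and Gm15637 fell 5.52-fold and 4.83-fold, and the lincRNA 6430573P05Rik 4.35-fold. The call of the last was lost whenever a single ZT12 liver, or ZT16 replicate 1 or 2, was left out (adjusted p up to 0.16).

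To ask which of these changes were shared with food given by day, the NRF difference was set beside that between DRF ZT4 and DRF ZT0, which uses other libraries. Of the 1685 genes that rose under NRF, 88.8% had a positive difference under DRF, against 48.4% of all genes, and 773 were called higher there too (45.9% of the NRF list and 47.6% of the DRF list). Of the 2513 genes that fell, 84.8% had a negative difference, against 51.4% of all genes, and 886 were called lower in both (35.3% of the NRF list and 59.2% of the DRF list). The background was 6.4% of genes called higher and 5.9% called lower under DRF. Among heat shock genes 13 of 20 rose at the onset of daytime feeding, and among ER chaperones 23 of 28. The log2 differences for Hsph1 were 2.48 under NRF and 2.20 under DRF, for Lpin1 -1.86 and -1.94 and for Pck1 -1.89 and -2.88. None of these 3 genes was called in the test of the difference of change (limma adjusted p from 0.39 to 0.96), which does not show that they changed alike.

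The change itself differed between both feeding onsets for 194 genes (0.764%), being more positive under NRF for 54 (0.213%) and more negative for 140 (0.552%). By unadjusted p under 0.05 it differed for 3426. Arntl led, with a difference of change of 2.58 (SE 0.27, limma adjusted p = 4.3e-08): it rose 24-fold under NRF, from a ZT12 mean of 1.38, and from 6.77 to 17.8 scaled counts under DRF. Clock and Dbp were the other clock genes of 19 whose change differed (adjusted p = 0.0022 and 0.0095), both changing more under NRF. Cyp2b10 rose under NRF and was 182 and 196 at DRF ZT0 and ZT4 (difference of change 2.22, SE 0.54, limma adjusted p = 0.031). Ccnd1, the cyclin D1 gene, was 73.5 ± 20.8 at NRF ZT12 and 44.1 ± 8.02 at NRF ZT16, while it rose from 26.7 to 71.3 under DRF (difference of change -2.16, SE 0.39, adjusted p = 0.0045). Nrep was 42.8 and 35.3 under NRF and 12.9 and 35.6 under DRF (difference of change -1.71), and the zinc finger gene Zfp973 5.88 and 10.4 under NRF and 8.46 and 3.80 under DRF (1.88). This count depended on single livers. It was 100 without NRF ZT16 replicate 1, 352 without NRF ZT16 replicate 4, 77 without NRF ZT12 replicate 3, 63 and 102 without DRF ZT4 replicates 1 and 2, and 99 without DRF ZT0 replicate 1. In the 16 libraries alone it was 18. There the call of Ccnd1 was lost (adjusted p = 0.054). The calls of Cyp2b10, Zfp973 and Nrep were lost without several single livers, the highest adjusted p being 0.12, and in the 16 libraries alone (adjusted p = 0.17, 0.25 and 0.11).

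**Figure D3:**
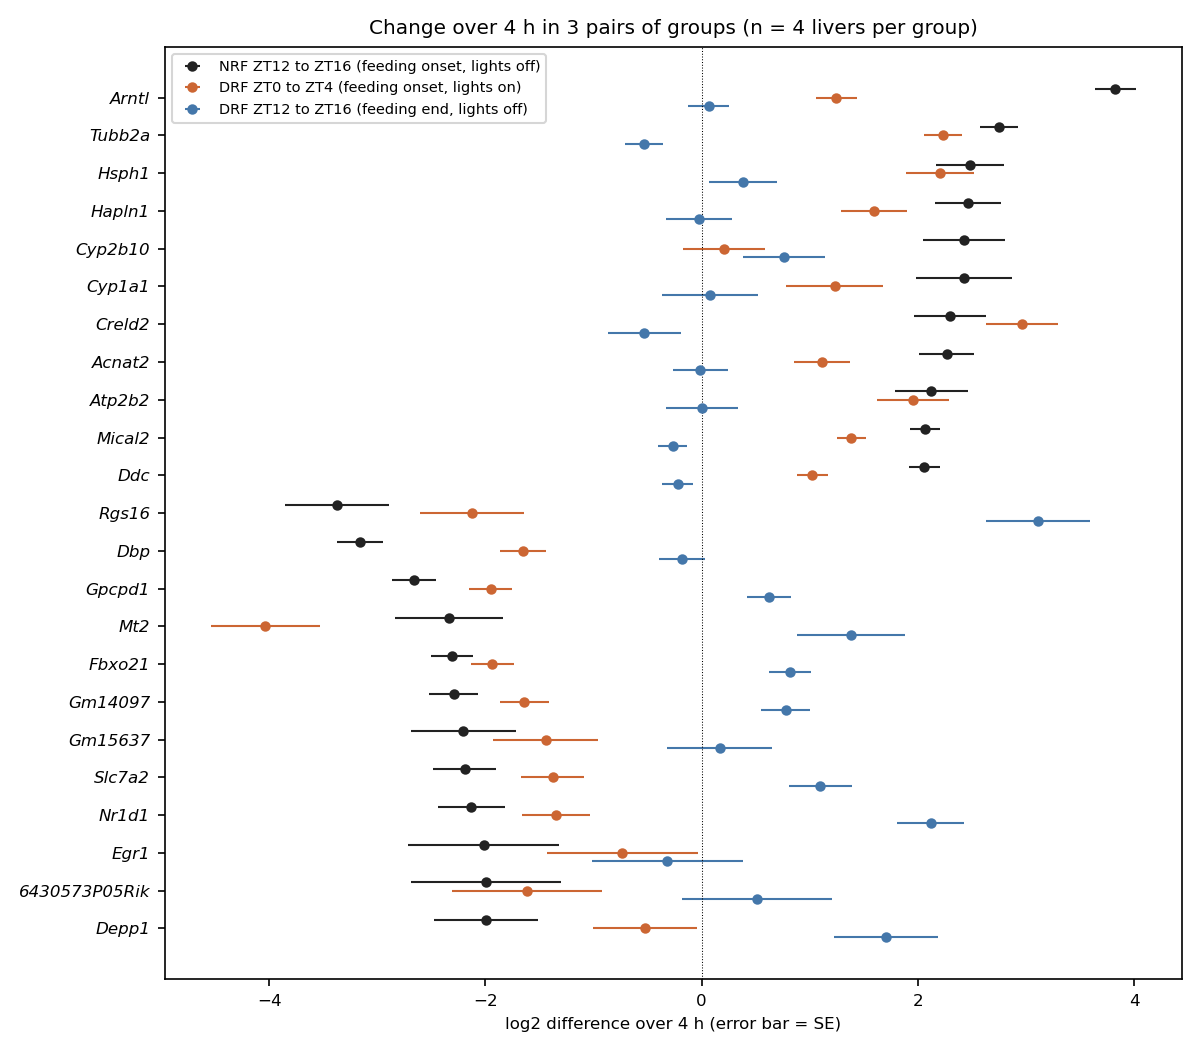
Log2 difference over 4 h with its SE for the leading genes in NRF ZT12 to ZT16 (black), DRF ZT0 to ZT4 (orange) and DRF ZT12 to ZT16 (blue). Each difference is from 4 against 4 livers. The SE comes from the limma fit across all 56 libraries, so it is the same for the 3 points of a gene and does not give the spread of the livers compared. The black and orange points lie on the same side of 0 for all genes shown, while the blue points scatter around 0 or, as for Rgs16 and Nr1d1, lie on the opposite side.

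The same hours of the light cycle without food gave another picture. The liver clock of day-fed animals stood at another phase at these hours, so food and liver clock cannot be told apart here. Between DRF ZT12 and ZT16, when day-fed animals entered the dark with food withdrawn, 1154 genes changed (4.55%, with 2.59% higher and 1.95% lower). Of the 1685 genes that rose under NRF, 53 were called higher and 125 lower there, and of the 2513 that fell, 48 were called lower and 229 higher. The change between ZT12 and ZT16 differed between the regimens for 3353 genes (13.2%, with 5.65% more positive under NRF and 7.56% more negative), and 2411 of them were among the 4198 called under NRF. The difference was largest for Rgs16, which fell from 23.1 to 1.27 under NRF and rose from 0.560 to 12.6 under DRF (difference of change -6.48, SE 0.68, limma adjusted p = 2.3e-09). Nr1d1 followed (-4.25), then Arntl (3.76), Mt2 (-3.72) and Depp1 (-3.69). Arntl was at 57.3 and 60.1 scaled counts at DRF ZT12 and ZT16. By list, the change differed for 15 of 19 clock genes, 12 of 19 insulin and FOXO genes, 17 of 28 ER chaperones and 12 of 20 heat shock genes. G6pc had log2 differences of 1.38 under NRF and 1.15 under DRF at these hours (adjusted p = 0.82 for the difference) and 0.23 at the onset of daytime feeding. In the 16 libraries alone the difference was called for 2125 genes.

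Over 24 h, several of the genes passed an extreme within this window. Under NRF, Hsph1 and Creld2 had their highest mean of the 7 times at ZT16 (83.3 and 55.3 scaled counts) and were at 39.7 and 20.3 by ZT20. Pck1 and Lpin1 were highest at ZT12, at 1036 ± 215 and 208 ± 27.9, and lower at ZT8 (444 ± 77.5 and 50.7 ± 3.79) as well as at ZT16. Fasn was still higher at ZT20 (908 ± 314) than at ZT16 (571 ± 212), with overlap of the means ± SD. Arntl reached its lowest mean at ZT12 and was 74.3 ± 4.05 at ZT20. Nr1d1 was highest at ZT8 (83.5 ± 4.70) and had already fallen to 19.6 ± 8.01 by ZT12.

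**Figure D4:**
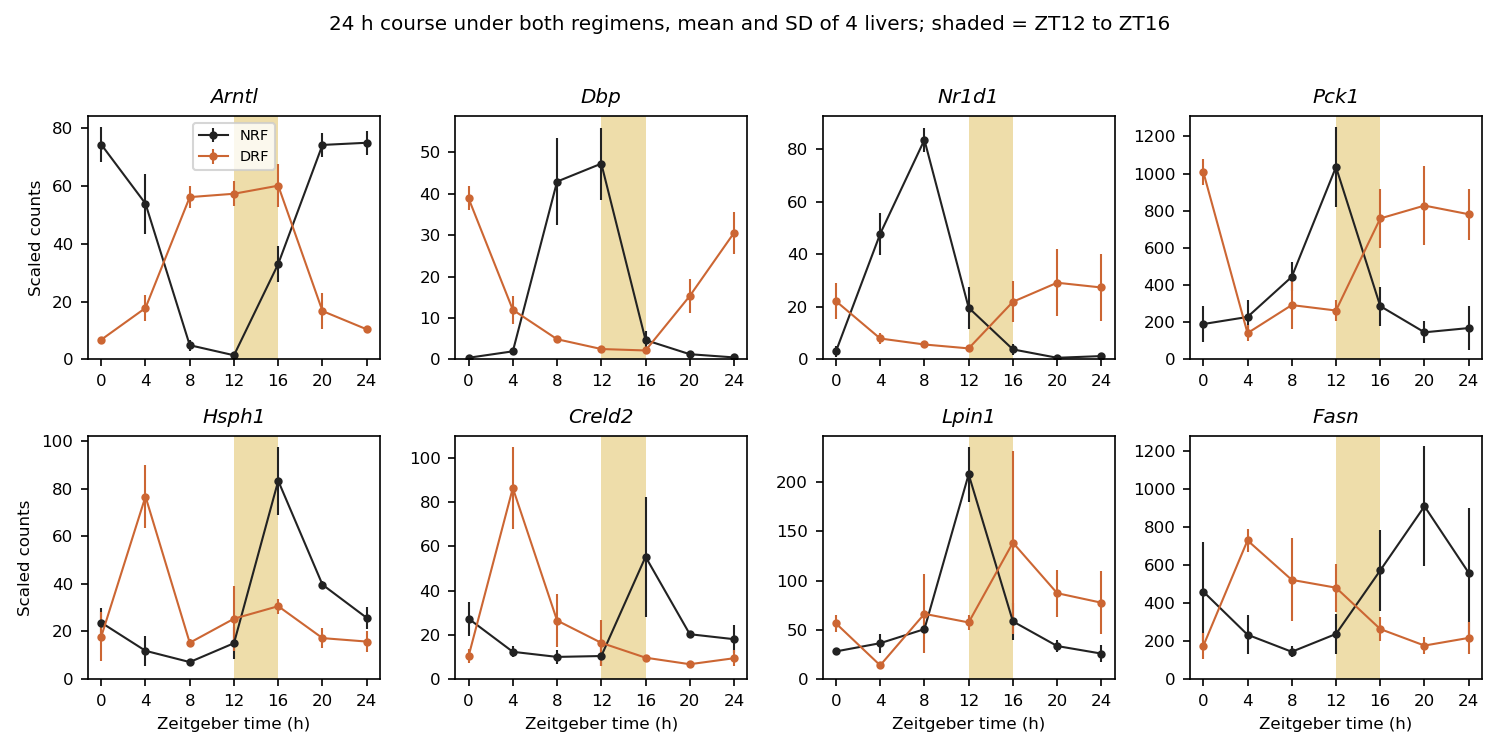
Scaled counts over 24 h under NRF (black) and DRF (orange) for 8 genes, mean and SD of 4 livers per time, with ZT12 to ZT16 shaded. Under NRF the shaded window holds the fall of Dbp, Pck1 and Lpin1 and the rise of Arntl, Hsph1, Creld2 and Fasn. For Nr1d1 it holds only the end of a fall, with means of 83.5 at ZT8, 19.6 at ZT12 and 3.75 at ZT16.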

How the data were processed

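RNA was sequenced from 56 livers, as described above. The labels' protocol gives ribosome depletion and strand-specific paired reads, although their molecule field says polyA RNA. The submitters' processing notes name CASAVA 1.8, featureCounts 1.5.0-p3, mm10 and GRCm38.p6, and the aligner is not given in the sources used here. The authors deposited gene values named TPM, treated here as a score because they are not linear: multiplied by exon length, each was a·ln(1 + f·k) for a whole k. Scaled counts, f·k, were rebuilt with exon lengths of GENCODE vM21 (GRCm38). In genes held out of the curve, 96.6% to 99.0% of values lay within 0.05 of a whole number. Of 25415 genes, 33 could not be rebuilt and 25382 were tested, 214 of them too deep to judge. The design had named linear TPM, and its tests were applied to scaled counts. Samples were grouped by regimen and time from the labels, and 0 columns were left unassigned.

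limma 3.58.1 (R 4.3.3) with a mean-variance trend was fitted to log2(scaled count + 1) over all 14 groups, with Benjamini-Hochberg adjustment over all genes and a threshold of 0.05. Differences of change were contrasts of the same fit. The script was tested on simulated data. Library measures were compared by exact permutation (Python 3.11.15, SciPy). Named genes were the 12 largest called rises and falls with no overlap of groups and a mean of at least 5 in the higher group, the members of 30 gene lists and 10 marker lists, and the 5 largest differences of change in each contrast. Among these, 2 genes are not reported here, although counts include them. The members and lists were chosen with earlier results of these data known. Alternatives were other pseudocounts, scalings, filters, samples and a replicate block. Replicates are labelled as separate livers. The paper gives an average and a minimum of reads per sample. The depth in reads of single libraries is not known here, so the spread between livers gives the precision.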

Additional observations from a re-analysis of the deposited data

Results flagged for a closer look

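Among 76 groups of 4 livers examined for a single distant value, 3 stood out, where chance flags about 1 in 20. All were NRF ZT16 replicate 4: Ddc was 148 scaled counts against 101 to 105 in the other 3, Fbxo21 was 22.4 against 28.4 to 28.9, and the erythroid markers summed to 1119 against 717 to 752.

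The change between ZT12 and ZT16 under NRF differed, by the test of the difference itself, from that between DRF ZT0 and ZT4 for 194 genes, led by Arntl (2.58 on the log2 scale), Cyp2b10 (2.22), Ccnd1 (-2.16), Zfp973 (1.88) and Nrep (-1.71). It differed from the change at the same hours under DRF for 3353 genes, led by Rgs16 (-6.48), Nr1d1 (-4.25), Arntl (3.76), Mt2 (-3.72) and Depp1 (-3.69).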

How the results depend on the processing

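The number of genes that differed between NRF ZT16 and ZT12, 4198, stayed between 3780 and 4858 under the other pseudocounts, scalings, filter and trend settings, and between 3313 and 4272 when single livers were left out. It was 1071 in the 8 libraries alone. The share of rises, 40.1%, was 52.0% with median-of-ratios scaling, 56.3% on deposited values and 60.9% after length correction, and 38.8% to 43.3% with single livers left out. The 194 genes whose change differed from DRF ZT0 to ZT4 were 79 on deposited values, 18 in the libraries of these groups alone and 63 to 352 with single livers left out. The 3353 that differed from DRF ZT12 to ZT16 were 2125 in the libraries of those groups alone and 2825 to 3577 with single livers left out. The cause of these shifts was not tested. With the replicate number as a block the counts were 4235, 217 and 3400. Same-numbered livers of NRF ZT12 and NRF ZT16 did not deviate together (r = 0.03, -0.11, -0.37 and 0.13 across genes). Livers of the other groups were not compared in this way. Whether same-numbered livers share a batch was not tested. Of the 24 leading genes, Cyp1a1, Mt2, Egr1 and 6430573P05Rik lost their call under at least 1 of 17 alternatives, and 0 changed direction. The depth in reads of single libraries is not known here, and genes with the lowest values are the least precise.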

Other observations

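Noncoding genes, like all genes tested, fell more often than they rose. Over all genes tested 6.64% rose and 9.9% fell, and that balance depended on the scaling. How the counts by gene type depend on it was not tested. Of 1650 antisense genes 191 fell and 29 rose, and of 1082 lincRNAs 81 fell and 38 rose, beside 1964 falls and 1330 rises among 15079 protein-coding genes. Both lincRNA shares lay below those of all genes, while antisense genes fell slightly more often and rose less often. Whether strand was used in counting is not given in the sources used here, so reads of an antisense gene and of its partner may not be separated.

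Among list members that could not be rebuilt, only the deposited, compressed values can be given. Cyp2c29, a cytochrome P450 gene, was 138 to 143 at ZT12 and 147 to 156 at ZT16 without overlap. Scd1, the stearoyl-CoA desaturase gene, was 83.2 to 97.2 and 89.3 to 100.5, and Gpam, of glycerolipid synthesis, 82.1 to 91.9 and 88.8 to 100.2. The groups overlapped for the last 2 genes, and also for Fads2, Acaa2, Cyp2c50, Ttr, Rbp4, C3 and Plg. Among the genes tested, 13.3% did not overlap. The deposited mean was higher at ZT16 for every gene named here. The library factor a, which multiplies deposited values, averaged 58218 at ZT12 and 59625 at ZT16 (exact permutation p = 0.0571, two-sided). Its part in these differences was not tested.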
